A study of Mus musculus with 2 samples.

Results

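The genes described here encode ATP-binding cassette (ABC) proteins, which in mammals fall into subfamilies A to G. They were chosen by symbol alone: a gene entered when the platform annotation gave a probe set exactly 1 gene symbol made of Abc, a letter from a to g, a number and at most 1 further letter. This gave 48 genes of 19938 measured, from 49 probe sets, of which Abcb5 had 2. An ABC protein binds ATP at a conserved nucleotide-binding domain, and most members couple ATP hydrolysis to the movement of a substrate across a membrane. Substrates range from drugs and glutathione conjugates to cholesterol, phospholipids, bile salts, peptides and very long chain fatty acids, while subfamilies E and F lack membrane domains and act with the ribosome. In bone marrow the family is best known for ABCG2 and the P-glycoproteins, which pump out the dyes used to sort haematopoietic stem cells.

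Both groups were KSL cells, the lineage-negative, c-Kit and Sca-1 positive fraction of marrow that holds stem cells and multipotent progenitors. The cells came from healthy C57BL/6J mice aged 8 to 10 weeks, either Nrf2+/+ (wild type) or Nrf2-/- (knockout), where Nrf2 names the transcription factor encoded by Nfe2l2. Marrow of 5 mice per genotype was pooled before the sort, and 1 amplified RNA pool per genotype was hybridised to 1 Affymetrix Mouse Gene ST 1.0 array. The title places the comparison within the question of how NRF2 affects the survival of haematopoietic stem cells; several ABC efflux pump genes, Abcc1 to Abcc4 among them, are known NRF2 targets in other tissues.

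With 1 array per genotype no value had a replicate error, no test was possible and no p-value is given; each difference is the log2 knockout intensity minus the log2 wild-type intensity. As a yardstick, the disagreement between probe sets of the same gene, taken from 515 genes with exactly 2 probe sets, gave a single difference an SD of 0.31, or 0.17 by a robust estimate. This probe-set SD does not cover variation among mice, cell sorts or RNA amplifications. A level filter kept genes whose mean over both arrays reached the median gene, a log2 intensity of 6.57. It kept 21 of the 48 ABC genes, and 27 were below it. Nfe2l2 itself read 9.07 and 9.16 in the knockout and wild-type pools; which part of the gene was deleted is not given in the labels, so this does not check the genotype. Of the gate's markers, Kit read 11.21 and 10.93 in the knockout and wild-type pools, and Ly6a, which encodes Sca-1, was not analysed here. Listed with them, though not part of the gate, were Cd34, Flt3 and Slamf1. In the same order, Cd34 read 11.43 and 11.29, Flt3 10.94 and 10.84, and Slamf1, below the filter, 6.43 and 5.73. Markers of mature neutrophils, which the gate should remove, were mostly lower in the knockout pool: 11 of 12 were lower, and the list's mean log2 level was 7.74 against 9.17. The 8 at least 2-fold lower past the filter were Retnlg (−2.66), Lcn2 (−2.10), Mmp8 (−2.00), Chil3 (−1.78), Ltf (−1.69), Camp (−1.64), Cxcr2 (−1.63) and S100a8 (−1.45). Of these, Retnlg, Mmp8 and Cxcr2 were under the filter level in the knockout pool, at 5.36, 5.74 and 6.19. They passed through their wild-type reading. Ly6g, below the filter, went the other way at 0.51. Of 11 monocyte and macrophage markers 10 were lower, led past the filter by Ms4a6c (7.28 against 8.29), Itgam (−0.95) and Fn1 (−0.80). Fn1 was under the filter level in the knockout pool, at 6.41. The remaining marker, Cd68, passed the filter and was higher in the knockout pool by 0.63, at 9.31 against 8.68. Markers of other lineages went both ways, with Cd79b at −0.79, Pf4 at 0.79 and Mcpt8 at −0.19.

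Members of the family with the core letters of an antioxidant response element, the DNA motif NRF2 binds with its small MAF partners, are shown first because NRF2 is the factor removed. The RefSeq promoter table of GRCm38.p6, which holds 250 bases before and 50 bases after each annotated start, had 45 windows for 38 of the 48 genes. The letters TGACNNNGC were searched on both strands, and no match overlapped another. They occurred in 7 of the 45 windows, or 15.6%, against 12.4% of all 32851 windows in the table. The 5 genes with a match were Abcc4, Abcc2, Abcc10, Abcb1a and Abca8b. The lines below give 80 bases for each match that lies before a start, 5′ to 3′ on the gene's strand, with the matched letters in capitals; Abcc4 has a match at both of its annotated starts, and the match of its outer start, listed second, is on the opposite strand.
Abcc4, inner start, chr14:118676932-118677011, minus strand: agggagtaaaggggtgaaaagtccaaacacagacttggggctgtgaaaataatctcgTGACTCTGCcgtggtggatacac
Abcc4, outer start, chr14:118706220-118706299, minus strand: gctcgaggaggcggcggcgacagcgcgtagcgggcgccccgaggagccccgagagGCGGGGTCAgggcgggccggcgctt
Abcc2, chr19:43782168-43782247, plus strand: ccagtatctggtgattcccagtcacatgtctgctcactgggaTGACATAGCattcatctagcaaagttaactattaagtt
Abcc10, chr17:46328184-46328263, minus strand: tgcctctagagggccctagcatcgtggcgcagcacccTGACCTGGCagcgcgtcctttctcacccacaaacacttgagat

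The matches began 23 and 25 bases before the inner and outer starts of Abcc4, 98 bases before the start of Abcc2 and 203 bases before a start of Abcc10. Abcb1a, Abca8b and a further Abcc10 start had a match just after the start. The 5 genes did not differ in one direction: Abcc4 (−0.33), Abcb1a (−0.17) and Abca8b (−0.05) were lower in the knockout pool, and Abcc2 (0.26) and Abcc10 (0.21) were higher. Abcb1a, Abca8b and Abcc2 were below the level filter, and of the 5 only Abcc4 was beyond the probe-set SD of 0.31. A match describes letters in a short window, is not evidence of binding, and says nothing of sites farther away.

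Large differences between the 2 pools were rare across the family, as they were among all genes. No ABC gene past the level filter reached a 2-fold difference in either direction, and over all 48 genes 1 did, the peroxisomal transporter gene Abcd2, which was lower in the knockout pool. Among genes past the filter, 0.762% of all genes were lower by 2-fold or more and 0.411% higher by that size; over all genes measured the shares were 0.602% and 0.311%. No ABC gene past the filter reached 1.5-fold, where 4.3% of all genes were lower and 2.34% higher by that size; over all genes measured, again only Abcd2 among the members did, beside 3.15% lower and 1.74% higher. The median difference was 0.05 over the 21 genes past the filter and 0.02 over all 48, beside −0.02 and 0.01 for all genes. Of the 21, 13 were above 0 and 8 below, a share of 61.9% above 0 where 46.5% of all genes past the filter were above 0. Over all 48, 25 were above 0, 21 below and 2 equal, and 50.7% of all genes measured were above 0. The differences of the 21 had an SD of 0.26, against 0.33 for all genes past the filter, and 20 of the 21 lay within the middle 95% of those genes, from −0.73 to 0.57. Abcb8, at 0.58, was the remaining one.

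**Figure D1:**
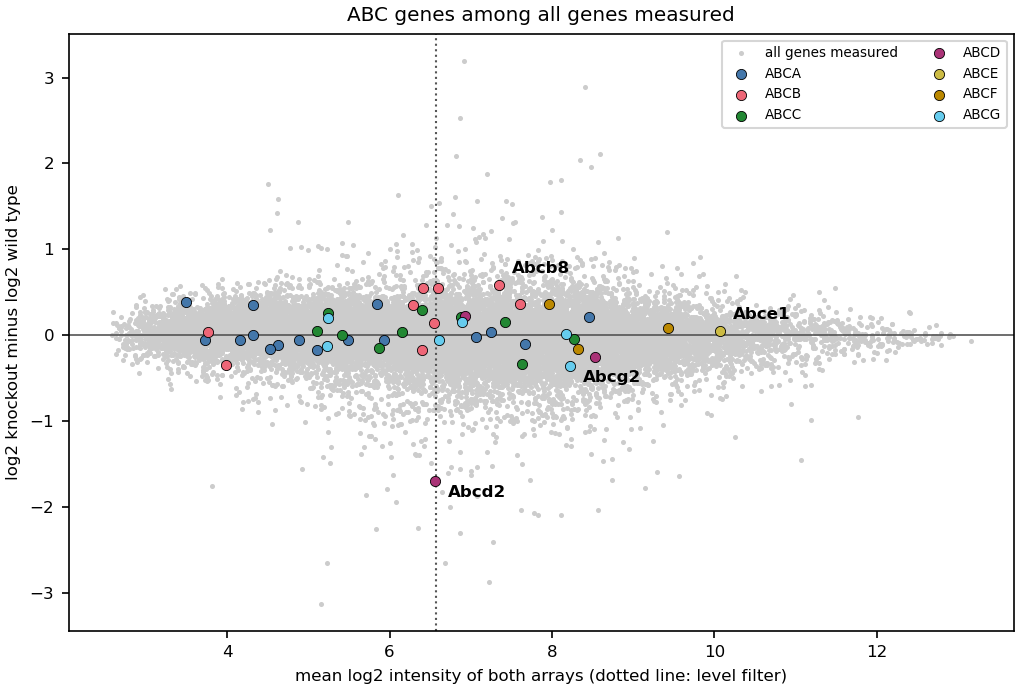
Each point is a gene, plotted by its mean log2 intensity on both arrays (horizontal) and its log2 knockout minus log2 wild-type difference (vertical); grey points are all 19938 genes, coloured points the 48 ABC genes by subfamily, and the dotted line is the level filter at 6.57. The ABC genes lie inside the grey cloud except Abcd2, which sits at −1.69 on the filter line.

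Because so few members reached 1.5-fold, a smaller size of 1.2-fold, chosen after the values were seen, was used to describe them. Past the filter, 4 of 21 ABC genes were higher in the knockout pool by this size (19.0%, against 12.8% of all genes) and 2 were lower (9.52%, against 19.3%). Over all measured genes, 10 of 48 were higher (20.8%, against 12.1%) and 4 lower (8.33%, against 14.3%). A size of 5 to 4, tried first, gave the same counts past the filter, against 9.27% of all genes higher and 14.5% lower. The higher genes past the filter were Abcb8, Abcb4, Abcf3 and Abcb1b, and the lower ones Abcg2 and Abcc4.

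The efflux pumps came first in the comparison, since they protect cells from toxic compounds and their conjugates. Of 10 multidrug and conjugate pump genes, 6 passed the filter, 3 higher and 3 lower in the knockout pool, with a median of 0.05. Abcg2 encodes the breast cancer resistance protein, which exports the Hoechst dye and porphyrins and marks the side population of stem cells. It read 8.05 in the knockout pool against 8.41 in the wild type; the difference of −0.35 left 78.2% of the wild-type intensity. This was larger than the probe-set SD of 0.31 but well inside the middle 95% of all genes, and 1818 of the 19938 genes had a lower difference. Abcc4 encodes a pump of cyclic nucleotides and prostaglandins. It read 7.47 in the knockout pool against 7.80 in the wild type, which differed by −0.33, with 79.4% of the wild-type intensity left. These were the 2 lowest differences among the 21 genes past the filter.

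The 2 mouse P-glycoprotein genes did not share a direction. Abcb1b read 7.79 in the knockout pool against 7.42 in the wild type, higher by 0.36. Abcb1a, below the filter, read 6.32 against 6.49 and differed by −0.17. Both encode drug efflux pumps that together do the work of the single human ABCB1. The copies are close in sequence, the probe sequences were not used here, and signal shared between them cannot be told apart. Abcb1a was within the probe-set SD of 0.31, and Abcb1b was beyond it.

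Abcc1, the pump of glutathione conjugates and leukotriene C4, was close in both pools, reading 8.24 in the knockout against 8.29 in the wild type, and differed by −0.05. The cyclic nucleotide pump gene Abcc5 differed by 0.15, at 7.50 and 7.34. Abcc10, a pump of several anticancer drugs, differed by 0.21, at 6.98 and 6.77. All of these were within the probe-set SD. Below the filter, Abcc2, which exports conjugates into bile, read 5.37 and 5.12, Abcc3, a basolateral conjugate pump, 6.17 and 6.14, and Abcc6, whose loss causes ectopic mineralisation, 6.55 and 6.26, each in the order knockout and wild type. None of the known NRF2 target pumps Abcc1 to Abcc4 was beyond 1.5-fold in either direction. Over all genes measured only 3.15% were lower and 1.74% higher by that size, so this count says little about these pumps. In subfamily C as a whole, 6 of 10 genes were higher, 3 lower and Abcc9 equal.

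**Figure D2:**
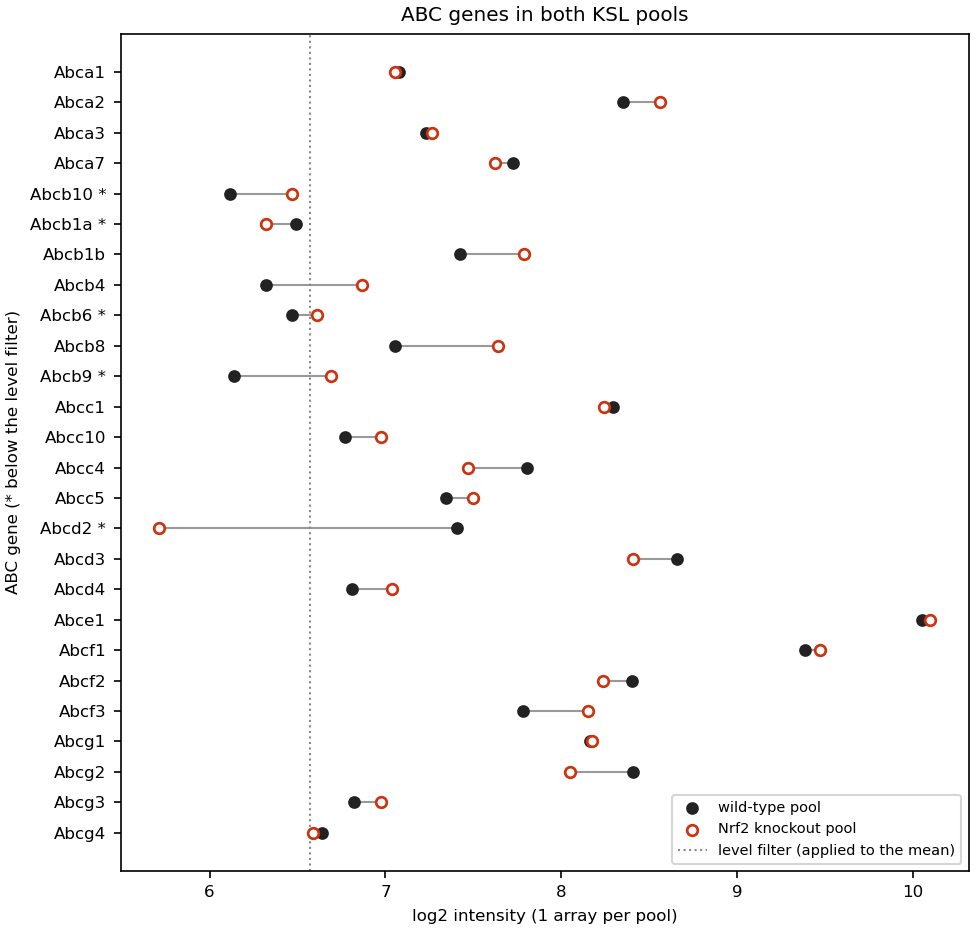
Log2 intensity (horizontal) of the 21 ABC genes past the level filter and of 5 further genes below it (marked *) in the wild-type pool (black) and the Nrf2 knockout pool (open red), 1 array each; the dotted line is the filter at 6.57, applied to the mean of both. Abcd2 has the longest line, from 7.41 to 5.71, while Abcc1, Abce1 and Abcg1 nearly coincide.

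Glutathione forms the conjugates that ABCC pumps export. Of 18 measured genes for its synthesis, recycling and conjugation, 13 were lower and 4 higher, with a median of −0.26. Of the 14 past the filter, 4 were at least 1.5-fold lower, where 4.3% of all genes were; 1 of these, Gstk1, was under the filter level in the knockout pool. The 3 of largest difference past the filter were the transferase genes Gstk1, at 6.43 against 7.37 in the wild type, and Gstm5, at 7.40 against 8.29, and the reductase gene Gsr, at 7.80 against 8.67. Below the filter, Slc7a11 went the other way by more than 1.5-fold, at 5.90 against 5.28 in the wild type, a difference of 0.63. NRF2 target genes of this list were chosen with their direction in these pools already known, so the count is a description. Regulators of efflux pump genes, which include the NRF2 inhibitor Keap1 and the hydrocarbon receptor Ahr, had 9 members past the filter with a median of 0.11, 5 higher and 4 lower. The glucocorticoid receptor gene Nr3c1 differed by 0.39, Ahr by −0.33 and Hif1a by −0.17.

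In subfamily B most genes were higher in the knockout pool. Of its 9 genes 7 were higher and 2 lower, with a median of 0.35, where 50.7% of all genes measured were above 0. By at least 1.2-fold 5 of the 9 were higher and 1 lower, where 12.1% of all genes were higher and 14.3% lower by that size. Only 3 of the 9 passed the level filter, all of them higher, and 6 were below it, 4 higher and 2 lower. Of the 5, Abcb9 and Abcb10 were below the filter, as was the 1 lower gene, Abcb11. The 7 higher genes include Abcb5, at 0.04, whose probe sets disagreed in sign. Medians over all measured genes of the other subfamilies were −0.05 for A, 0.04 for C, −0.25 for D, 0.09 for F and −0.02 for G. The difference between subfamilies was not tested, since genes are not replicates.

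Within B, the 3 measured genes of mitochondrial transporters were each higher in the knockout pool. Abcb8, which encodes a transporter of the inner membrane, read 7.64 against 7.06 in the wild type, a difference of 0.58 that falls just short of 1.5-fold; 351 of all genes had a higher difference. Abcb10, which erythroid cells need for haem synthesis, read 6.47 and 6.12, a difference of 0.35, and Abcb6, a porphyrin transporter gene, 6.61 and 6.47, a difference of 0.14; both were below the filter. Abcb6 lay 0.028 below it. Of the haem and iron-sulphur genes listed as partners, 13 passed the filter, 4 higher and 9 lower, with a median of −0.13. The 3 of largest difference were Tmem14c, a mitochondrial porphyrin carrier gene, at −0.62, the haem exporter gene Flvcr1 at −0.51 and the haem synthesis gene Uros at 0.48. Uros was under the filter level in the wild-type pool, at 6.34, and passed through its knockout reading of 6.82.

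Abcb4 and Abcb9 differed by about as much as Abcb8. Abcb4, whose product flips phosphatidylcholine into bile, read 6.87 in the knockout pool against 6.32, higher by 0.55, and passed the filter by 0.026. Abcb9, a lysosomal peptide transporter related to the TAP complex, stood at 6.69 and 6.14, higher by 0.55, and was below the filter by 0.154. For Abcb4, Abcb6, Abcb9 and Abcb10 the wild-type reading was under the filter level, where weak signal makes a difference less sure. In the order of the RefSeq annotation of GRCm38.p6, Abcb1a, Abcb1b and Abcb4 come in succession among the ABC genes of chromosome 5. They did not share a direction, since Abcb1a was lower in the knockout pool, at −0.17. The remaining B genes were low in both pools: Abcb11, the bile salt export pump gene, read 3.82 and 4.16, and Abcb5 3.78 and 3.74 as the mean of its probe sets. The probe sets of Abcb5 disagreed, at −0.13 and 0.20.

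**Figure D3:**
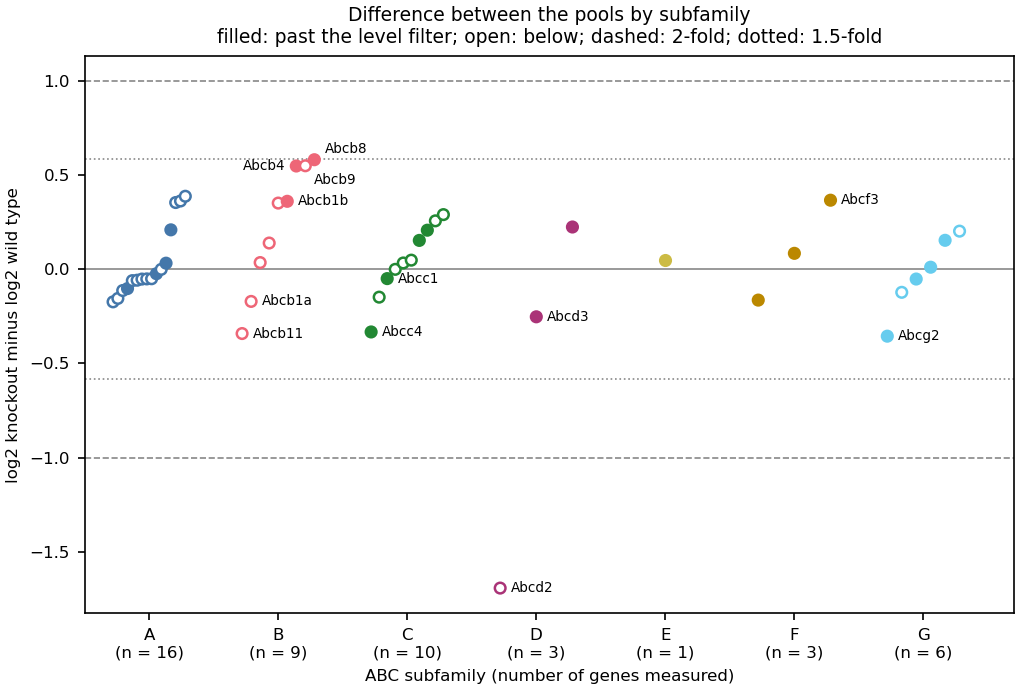
Log2 knockout minus log2 wild-type difference (vertical) of the 48 ABC genes by subfamily (horizontal, with the number of genes), filled where the gene passed the level filter and open where it did not; dashed lines mark 2-fold and dotted lines 1.5-fold. In B, 7 of 9 points lie above 0, and Abcd2 alone lies beyond a dashed line.

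TAP1 and TAP2, which carry peptides into the endoplasmic reticulum for loading on class I molecules, are ABC proteins whose symbols the rule does not take in. Tap1 differed by −0.04, at 7.94 against 7.98 in the wild type, and Tap2 by 0.15, at 9.57 and 9.42. Cftr, the chloride channel gene of subfamily C, read 3.83 and 3.73. The 9 antigen peptide loading genes measured all passed the filter with a median of 0.06, 7 higher and 2 lower. Psmb10 differed by 0.30, Tapbp by 0.26 and Erap1 by −0.19.

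Subfamily D held the one large difference. Its products import very long chain acyl chains into peroxisomes, except ABCD4, which acts on cobalamin in lysosomes. Abcd2 read 5.71 in the knockout pool against 7.41 in the wild type and differed by −1.69, so the wild-type intensity was 3.23-fold higher. Only 21 of the 19938 genes had a lower difference. Its mean lay 0.008 below the level filter, so it is absent from the counts past the filter, and its knockout reading alone was under the filter level. A single probe set measured it. It had no entry in the promoter table. In bulk RNA, fewer cells that express a gene and less RNA per cell cannot be told apart. The 12 neutrophil markers had a median of −1.63 in the same comparison, and the 11 monocyte and macrophage markers one of −0.66, with a mean log2 level of 6.93 against 7.50; their part in the reading of Abcd2 was not tested.

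The other D genes were closer to level. Abcd3, which encodes an abundant protein of the peroxisomal membrane, read 8.40 in the knockout pool against 8.66 and differed by −0.25. Abcd4 read 7.04 against 6.81, higher by 0.22. Both were within the probe-set SD. Of the peroxisomal and cobalamin genes listed as partners, 11 of 13 measured passed the filter, with a median of −0.11, 3 higher and 8 lower. Pex3, which anchors the import of peroxisomal membrane proteins, read 6.61 against 7.39 in the wild type, a difference of −0.78. Hsd17b4, an enzyme of peroxisomal beta-oxidation, differed by −0.51 and Lmbrd1, a lysosomal cobalamin exporter gene, by 0.45. Below the filter, Slc27a2 of the same list was higher in the knockout pool by 0.80, at 6.45 against 5.66.

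Lipid and sterol exporters differed both ways. Of 10 genes in this role 5 were higher and 5 lower, with a median of −0.01; the 6 past the filter ranged from −0.10 for Abca7 to 0.55 for Abcb4, described above. Abca1, which loads cholesterol onto apolipoprotein A-I, read 7.05 in the knockout pool against 7.08. Abcg1, which hands cholesterol to mature lipoprotein particles, read 8.18 against 8.16, a difference of 0.01. Both exporters restrain the growth of haematopoietic progenitors in mice, and here neither differed by more than 0.03; the sign of Abca1 turned with quantile normalization. Abcg4, a close relative of Abcg1, differed by −0.05, at 6.59 and 6.64. Of genes that sense or handle sterols, 13 passed the filter with a median of −0.11, 5 higher and 8 lower: the lipoprotein receptor gene Scarb1 differed by −0.46, Apoe by −0.40 and Mylip, a liver X receptor target, by 0.27.

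Among the remaining subfamily A and G genes past the filter, Abca2, an endolysosomal lipid transporter gene, read 8.56 in the knockout pool against 8.35 and differed by 0.21. Abca3, the surfactant lipid transporter gene of lung, read 7.26 and 7.23, and Abca7, a phospholipid transporter gene, 7.62 and 7.72. Abcg3, a rodent relative of Abcg2, read 6.97 and 6.82 and so differed by 0.15, opposite in sign to Abcg2. The 12 subfamily A genes below the filter differed by between −0.17 and 0.39. The 3 highest of these were Abca16, the retinal transporter gene Abca4 and Abca15, by 0.39, 0.36 and 0.35, and Abca6 was equal. Abcg5 and Abcg8, whose products pair to export plant sterols in gut and liver, were below the filter and differed by −0.12 and 0.20. The potassium channel subunit genes Abcc8 and Abcc9 were below it too, at −0.15 and exactly 0. Their channel partners Kcnj11, higher by 0.32, and Kcnj8, equal in both pools, were also below it, and Abcc12 differed by 0.05.

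All 4 genes of the soluble subfamilies E and F passed the filter, with a median of 0.07. ABCE1 splits ribosomes after termination, and its gene read 10.10 in the knockout pool against 10.05. Abcf1, which acts in translation initiation, read 9.47 against 9.39, and Abcf2 read 8.24 against 8.40, a difference of −0.16. Abcf3 was higher by 0.37, at 8.15 and 7.78, and was the only gene of the 4 beyond the probe-set SD. Their translation partners had a median of −0.06 over 9 genes past the filter, 4 higher and 5 lower. The ribosome rescue gene Hbs1l differed by −0.46, the iron-sulphur assembly gene Nubp1 by 0.32 and the kinase gene Eif2ak4 by 0.20.

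**Figure D4:**
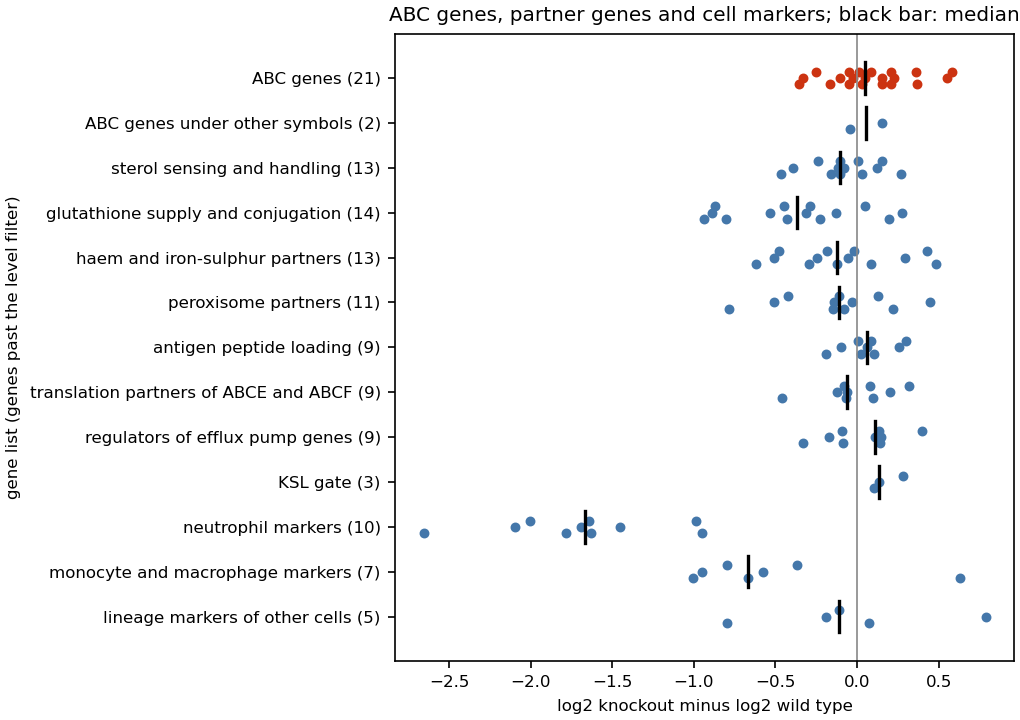
Log2 knockout minus log2 wild-type difference (horizontal) of each gene past the level filter in the ABC family (red), the partner lists and the cell marker lists (blue), with the number of genes in brackets and a black bar at each median; the vertical offset of points has no meaning. The ABC genes have a median of 0.05, glutathione genes one of −0.37, and the 10 neutrophil markers shown one of −1.67; markers below the filter, such as Ly6g, are not drawn.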

How the data were processed

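The authors deposited a log2 intensity for each probe set on each array; the range of values, up to 13.8, gave the log base. Per the labels, RNA was isolated with an RNeasy micro kit and amplified and labelled with NuGEN Ovation kits. Per the submitters' processing notes Partek was used; how background, normalization and probe summary were handled is not given in the sources used. After sorting, the 2 arrays' values were never more than 0.0866 apart, so a change common to all genes may have been removed. Arrays have no read depth, and their number limits the precision.

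Of 28853 probe sets, 21789 had 1 gene symbol in the platform annotation, 1621 several and 5443 none; only the first kind was used, and probe sets of a gene were averaged. The level filter was set at the 50th percentile of gene means, passed by 9970 genes. Of 159 genes in 13 partner and marker lists, 138 were measured. All members past the filter are named. Of each other list, the 3 with the largest absolute difference past the filter are named, where it has that many, and any at least 2-fold different. Flt3, Cd34, Kit, Slamf1, Cftr, Ly6g, Cd68, Keap1, Kcnj11, Kcnj8, Slc7a11 and Slc27a2 are named for completeness. The members and lists were chosen with earlier results of these data known. Steps were tested on simulated data. Computation used Python 3.11.15, numpy 2.4.6, pandas 2.3.3, statsmodels 0.14.6 and matplotlib 3.10.9.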

Additional observations from a re-analysis of the deposited data

How the results depend on the processing

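Each of the 48 differences was recomputed with median centring, quantile normalization, loess on mean level and the probe set of highest mean. All 192 values stayed within the robust probe-set error of 0.17 of the deposited ones. For many of them this was fixed in advance. Median centring moved every gene by the same small amount, and the probe set of highest mean could change only Abcb5. Only quantile normalization and loess could move genes by different amounts across the family. The sign turned for Abca1 under quantile normalization (0.01) and for Abcb5 under loess (−0.004). The count of members at least 1.5-fold higher went from 0 to 1 under median centring, quantile normalization and loess, through Abcb8. Without the level filter, the counts at least 2-fold and at least 1.5-fold lower each became 1, through Abcd2. With the filter at the 75th percentile 8 members were left, 4 of them higher, and their median was −0.019. At the 1.2-fold size and at a size of 5 to 4, both added after seeing the data, 4 were higher and 2 lower. With the probe set of highest mean, the counts past 2-fold and 1.5-fold stayed at 0 and the median at 0.05. No member past the filter had more than 1 probe set, so these could not change. The median was 0.02 without the filter and between 0.07 and 0.08 under the other normalizations, and the mean was 0.08. No paired analysis was possible because each genotype had 1 array. With 1 pool per genotype, differences between mice, sorts, amplifications or arrays cannot be told apart from genotype, and weak signal limits the 27 members below the filter.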

Other observations

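Abca6 and Abcc9 had exactly the same deposited value in both pools, 4.31 and 5.42. This occurred in 474 of the 19938 genes, or 2.38%; how such equal values arose is not given in the sources used here. Their differences of 0 were kept in all counts and medians.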
